A study of Mus musculus with 24 samples.

Results

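Xcl1, Ccr8, Akr1c18 and Trpm1 are 4 of the 17097 genes measured here in mouse naive CD4 T cells with and without Raptor. They were selected on measured values, as genes with some of the largest rises in Raptor-deficient over wild-type (WT) cells after stimulation, so their genotype differences at 8 h and 24 h are given below as a description with no test. The series holds 24 arrays in 6 groups of 4. Cells labelled WT came from C57BL/6 mice, and Raptor-deficient cells came from mice labelled CD4(cre)Raptor(fl/fl), in which a Cre recombinase under the Cd4 promoter acts on floxed Raptor alleles in T cells. The labels name no Cre for the WT mice and no strain for the Raptor-deficient mice, and give neither age nor sex. In both genotypes CD4+CD62LhiCD44loCD25- cells were sorted by flow cytometry from spleen and peripheral lymph nodes, then used unstimulated or stimulated with plate-bound anti-CD3/CD28 for 8 h or 24 h. The labels do not tie replicates to separate mice, so a p-value here reflects only how these samples spread, and that spread may be technical.

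Raptor is the subunit that defines the kinase complex mTORC1, which couples antigen receptor, costimulatory and nutrient signals to cell growth. The 4 genes belong to different families. Xcl1 encodes lymphotactin, a chemokine known from activated T and NK cells whose receptor, Xcr1, sits on dendritic cells that cross-present antigen. Ccr8 encodes a chemokine receptor known from regulatory and type 2 helper T cells, with Ccl1 and, in mice, Ccl8 as ligands. Akr1c18 encodes 20-alpha-hydroxysteroid dehydrogenase, an aldo-keto reductase that inactivates progesterone and that has long been known in T cells as an activity linked to interleukin 3. Trpm1 encodes a cation channel known from melanocytes and retinal bipolar cells.

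Levels are log2 intensities as the authors deposited them, so a difference of 1 is a 2-fold change. The median of all gene values was 5.51, and a level under it is called near background here, where a fold is only that of the measured intensities. Rptor, the gene of Raptor, lay at 7.04 to 7.49 in unstimulated WT and at 5.92 to 7.37 in unstimulated Raptor-deficient samples, at 7.46 to 7.57 against 6.27 to 6.79 at 8 h, and at 6.91 to 7.21 against 6.25 to 6.60 at 24 h. It was lower in Raptor-deficient cells by 0.62, 1.01 and 0.64 on the log2 scale (limma adjusted p = 0.075, 0.000292 and 0.0109, n = 4 per group), with overlapping groups when unstimulated. Without Raptor-deficient unstimulated replicate 2, the unstimulated difference was -0.86 and passed the threshold (limma adjusted p = 0.00244). It also passed with the mean of all probe sets and with a replicate block (limma adjusted p = 0.0025 and 0.0499). Without the 24 h samples numbered 1, the 24 h difference was -0.58 and missed the threshold (limma adjusted p = 0.0675). The files do not place its probes against the deleted part. All 10 measured alpha beta CD4 T cell markers reached the median in every group. Replicate 1 of both 24 h groups stood apart in the liver gene Alb, where it read 9.02 (WT) and 9.11 (Raptor-deficient) and the remaining samples 6.14 to 6.71. The mean of 10 hepatocyte markers was also high in these samples, at 6.25 (WT) and 6.29 (Raptor-deficient), against 4.49 to 4.69 in the remaining ones. In bulk RNA, fewer expressing cells and less RNA per cell cannot be told apart. The members were chosen for high stimulated Raptor-deficient over WT values, which favours rises in Raptor-deficient cells and falls in WT cells over time. Where such a change of a member passed the test (limma adjusted p under 0.05), its size is given as a description, with no p.

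**Figure D1:**
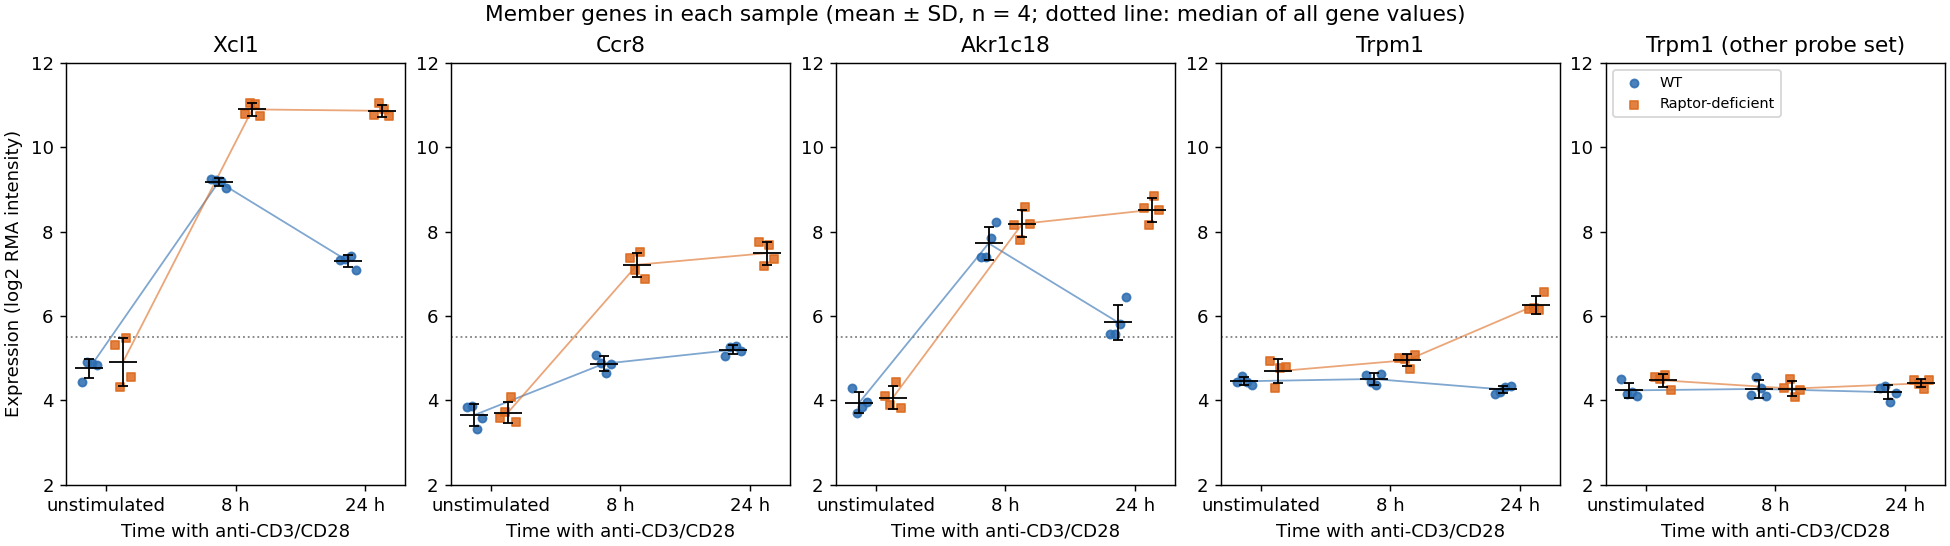
Log2 intensity of each member gene in all 24 samples by time with anti-CD3/CD28, WT as blue circles and Raptor-deficient as orange squares, with the mean and SD of 4 samples in black and the median of all gene values, 5.51, dotted. At 24 h all Raptor-deficient samples lie above all WT samples for the 4 genes, while the second probe set of Trpm1, in the last panel, stays under the dotted line in every group.

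Xcl1, the secreted ligand of the set, rose strongly in both genotypes by 8 h, and by 24 h stood lower in WT cells but not in Raptor-deficient ones. Unstimulated WT samples read 4.43, 4.90, 4.89 and 4.83, and unstimulated Raptor-deficient samples 5.31, 4.31, 5.49 and 4.54. At 8 h the WT samples read 9.26, 9.23, 9.21 and 9.04 and the Raptor-deficient samples 10.79, 11.04, 11.03 and 10.74. At 24 h they read 7.34, 7.35, 7.44 and 7.08 in WT and 10.76, 11.05, 10.91 and 10.76 in Raptor-deficient cells. The genotypes overlapped before stimulation, with Raptor-deficient replicates 1 and 3 the highest, and did not overlap at either stimulated time.

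Before stimulation Xcl1 averaged 4.76 ± 0.23 (SD, n = 4) in WT and 4.91 ± 0.57 (n = 4) in Raptor-deficient cells, both near background, and the difference of 0.15 did not pass the test (limma adjusted p = 0.794). From there WT cells rose 21.4-fold by 8 h (limma adjusted p = 5.0e-17), with rank 20 among the rises of all genes, and stood 5.82-fold above unstimulated cells at 24 h (1.8e-12). Between 8 h and 24 h the WT level fell 3.68-fold. Raptor-deficient cells rose 63.6-fold by 8 h. They stayed 62.1-fold up at 24 h, with a change between the stimulated times of -0.03 on the log2 scale that did not pass the test (limma adjusted p = 0.931). Set side by side, the 8 h means were 9.18 ± 0.10 and 10.90 ± 0.16, a 3.29-fold difference, and the 24 h means 7.30 ± 0.15 and 10.87 ± 0.14 (11.8-fold), the largest rise of all genes. Xcr1, the receptor for this ligand, was near background in all 6 groups (means 4.33 to 4.65) and did not pass the test between genotypes at any time (limma adjusted p = 0.886, 0.556 and 0.521).

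Ccr8, the receptor of the set, reached a higher level in Raptor-deficient cells at both stimulated times, while its WT level stayed near background throughout. Unstimulated samples read 3.83, 3.87, 3.33 and 3.58 in WT and 3.57, 3.71, 4.07 and 3.49 in Raptor-deficient cells. At 8 h they read 5.08, 4.88, 4.65 and 4.87 in WT and 7.37, 7.10, 7.52 and 6.88 in Raptor-deficient cells. At 24 h they read 5.06, 5.27, 5.28 and 5.18 in WT and 7.76, 7.19, 7.68 and 7.34 in Raptor-deficient cells. The genotypes overlapped when unstimulated and were apart by more than the range of either group at 8 h and 24 h.

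The unstimulated means of Ccr8, 3.65 ± 0.25 (SD, n = 4) in WT and 3.71 ± 0.26 (n = 4) in Raptor-deficient cells, did not differ beyond their spread (difference 0.06, limma adjusted p = 0.916). In WT cells Ccr8 rose 2.32-fold by 8 h (limma adjusted p = 1.67e-07) and stood 2.92-fold up at 24 h (1.47e-09). In Raptor-deficient cells it rose 11.3-fold and 13.7-fold. Between 8 h and 24 h it moved by 0.33 in WT and 0.27 in Raptor-deficient cells on the log2 scale, neither past the test (limma adjusted p = 0.112 and 0.222). The WT change passed in a fit of those groups alone (0.022) and with array weights (0.042). The genotype difference, 4.87 ± 0.18 against 7.22 ± 0.28 at 8 h and 5.20 ± 0.10 against 7.49 ± 0.27 at 24 h, was 5.09-fold and 4.90-fold. The ligand genes stayed low. Ccl1 had group means of 4.57 to 5.0 and Ccl8 of 4.32 to 4.70, near background, and no genotype difference of either passed the test at any time (lowest limma adjusted p = 0.202 for Ccl1 and 0.181 for Ccl8).

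Akr1c18, the steroid-metabolising enzyme, was induced to overlapping levels in both genotypes at 8 h and separated only at 24 h, when the WT level had fallen. Unstimulated samples read 4.29, 3.70, 3.85 and 3.96 in WT and 4.11, 3.89, 4.45 and 3.82 in Raptor-deficient cells. At 8 h they read 7.41, 7.41, 7.85 and 8.23 in WT and 8.17, 7.81, 8.60 and 8.17 in Raptor-deficient cells. At 24 h they read 5.57, 5.59, 5.81 and 6.45 in WT and 8.56, 8.16, 8.85 and 8.51 in Raptor-deficient cells. WT replicate 4 was the highest of its group at both stimulated times, and at 8 h it lay above 3 of the 4 Raptor-deficient samples.

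The unstimulated means of Akr1c18, 3.95 ± 0.25 and 4.07 ± 0.28 (SD, n = 4 each), were near background and did not differ beyond their spread (difference 0.12, limma adjusted p = 0.869). By 8 h the gene rose 13.7-fold in WT (limma adjusted p = 3.48e-14) and 17.4-fold in Raptor-deficient cells. From 8 h to 24 h it fell 3.66-fold in WT cells. In Raptor-deficient cells the change over that time was 0.33 on the log2 scale and did not pass the test (limma adjusted p = 0.29). At 24 h it stood 3.74-fold above unstimulated cells in WT (limma adjusted p = 9.42e-09) and 21.9-fold in Raptor-deficient cells. The genotype difference was 1.38-fold at 8 h (7.73 ± 0.40 against 8.19 ± 0.32), rank 365 among all genes, and 6.35-fold at 24 h (5.85 ± 0.41 against 8.52 ± 0.28), rank 3. Il3, the gene of the cytokine linked to this enzyme activity, had means of 3.38 to 3.44 in unstimulated and 5.75 to 6.08 in stimulated groups, and did not pass the test between genotypes at any time (limma adjusted p = 0.945, 0.824 and 0.77).

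Xcl1 and Akr1c18 shared the shape of their time course, a WT peak at 8 h and a level held to 24 h in Raptor-deficient cells. Their start regions are therefore shown, 250 bases before to 50 bases after the transcript start on the gene's own strand, from RefSeq on GRCm38.p6. The genes lie at chr1:164931644-164935522 (Xcl1) and chr13:4132615-4150646 (Akr1c18), and the regions at chr1:164935473-164935772 and chr13:4150597-4150896, both on the minus strand.
Xcl1: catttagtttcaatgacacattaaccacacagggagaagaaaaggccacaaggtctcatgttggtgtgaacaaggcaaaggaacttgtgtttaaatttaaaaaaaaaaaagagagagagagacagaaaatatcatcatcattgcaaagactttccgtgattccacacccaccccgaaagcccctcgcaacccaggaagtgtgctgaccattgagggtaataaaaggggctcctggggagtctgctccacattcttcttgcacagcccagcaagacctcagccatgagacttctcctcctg
Akr1c18: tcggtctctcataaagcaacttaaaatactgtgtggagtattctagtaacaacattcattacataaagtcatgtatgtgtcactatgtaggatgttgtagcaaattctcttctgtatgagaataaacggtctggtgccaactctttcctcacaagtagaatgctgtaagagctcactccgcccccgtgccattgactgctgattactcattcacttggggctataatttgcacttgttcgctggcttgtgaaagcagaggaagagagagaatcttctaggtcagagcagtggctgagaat
Neither region holds any of 8 motifs searched on both strands, in contrast to the Trpm1 regions below. None of the 8 contains another. The motifs, with the share of all 32851 start regions of the same length that hold each, were CACGTG (an E-box, 7.15%), TCATGTG (M-box core, 3.77%), TGANTCA (AP-1, 7.81%), TGACGTCA (CRE, 1.79%), TGGAAA (NFAT core, 21.4%), TTCNNNGAA (GAS, 8.3%), TGATGNAA (ATF4 composite, 3.97%) and TATAAA (a core promoter box, 13.6%). The Ccr8 region (chr9:120091883-120092182, plus strand, gene at chr9:120092133-120094906) held none of them either. That these letters were not found says nothing about the factors.

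Trpm1, the channel gene, differed from the other members in that no rise was called in WT cells and it rose in Raptor-deficient cells late, between 8 h and 24 h. Its brighter probe set read 4.44, 4.58, 4.43 and 4.36 in unstimulated WT and 4.93, 4.28, 4.76 and 4.79 in unstimulated Raptor-deficient samples. At 8 h it read 4.61, 4.43, 4.36 and 4.63 in WT and 5.0, 4.99, 4.75 and 5.08 in Raptor-deficient cells. At 24 h it read 4.15, 4.21, 4.33 and 4.35 in WT and 6.16, 6.19, 6.14 and 6.58 in Raptor-deficient cells. Among all 6 groups, Raptor-deficient cells at 24 h were the only one above the median of all values, and their replicate 4 was the highest sample.

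The unstimulated means of Trpm1, 4.45 ± 0.10 and 4.69 ± 0.28 (SD, n = 4 each), did not differ beyond their spread (difference 0.24, limma adjusted p = 0.375). In WT cells the changes from unstimulated were 0.05 at 8 h and -0.19 at 24 h on the log2 scale, neither past the test (limma adjusted p = 0.771 and 0.186). In Raptor-deficient cells the change by 8 h, 0.26, did not pass (limma adjusted p = 0.0948). It passed without unstimulated replicate 1 (0.34) or 8 h replicate 3 of that genotype (0.33). At 24 h the gene stood 2.98-fold above unstimulated and 2.49-fold above 8 h in Raptor-deficient cells. The genotype difference was 1.36-fold at 8 h (4.51 ± 0.13 against 4.95 ± 0.14), rank 406 among all genes, and 4.03-fold at 24 h (4.26 ± 0.09 against 6.27 ± 0.21), rank 6.

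The other Trpm1 probe set did not show this rise. It averaged 4.19 ± 0.17 (SD, n = 4) in WT and 4.40 ± 0.10 (n = 4) in Raptor-deficient cells at 24 h, a difference of 0.21 on the log2 scale, with samples from 3.97 to 4.35 and from 4.27 to 4.48. Its change from unstimulated to 24 h in Raptor-deficient cells was -0.07 (limma adjusted p = 0.679 over all probe sets). All its group means, 4.19 to 4.48, were near background. The 24 h value of Trpm1 therefore rests on 1 of 2 probe sets, and where each lies in the transcript was not analysed here. Xcl1, Ccr8 and Akr1c18 had 1 probe set each.

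Trpm1 is known as a target of the melanocyte factor MITF, which binds M-box and E-box letters, and its 2 RefSeq start regions were the only ones of the set that held a searched motif, shown in capitals. They lie on the plus strand at chr7:64153585-64153884 and chr7:64185209-64185508, within or just before the gene at chr7:64153835-64269772 (GRCm38.p6). The first holds TCATGTG at position -142 from its start and the second CACGTG at position -229.
Trpm1 start 1: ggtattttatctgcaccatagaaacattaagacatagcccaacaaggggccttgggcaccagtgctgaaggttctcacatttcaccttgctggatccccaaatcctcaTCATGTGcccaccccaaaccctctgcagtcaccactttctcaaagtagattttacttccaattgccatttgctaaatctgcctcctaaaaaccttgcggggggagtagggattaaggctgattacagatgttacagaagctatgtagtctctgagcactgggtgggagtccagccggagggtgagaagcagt
Trpm1 start 2: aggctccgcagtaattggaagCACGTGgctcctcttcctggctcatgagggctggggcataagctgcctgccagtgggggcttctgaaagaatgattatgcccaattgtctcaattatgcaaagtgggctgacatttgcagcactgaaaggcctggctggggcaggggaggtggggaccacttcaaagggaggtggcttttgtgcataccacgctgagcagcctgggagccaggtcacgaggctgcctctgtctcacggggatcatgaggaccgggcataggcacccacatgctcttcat
A match is a description of letters, found in 3.77% and 7.15% of all start regions, and no binding was measured. Mitf itself was near background in all groups (means 3.61 to 4.22), and of Mitf, Tfeb, Tfe3 and Tfec none passed the test between genotypes at any time by limma (0, 1 and 0 of 4 had an unadjusted p under 0.05 when unstimulated, at 8 h and at 24 h). Mitf differed by 0.44 at 8 h (limma adjusted p = 0.0514) and by 0.13 at 24 h (0.632). Tfeb, which mTORC1 is known to hold in the cytoplasm, differed by -0.27 at 24 h (0.222). The microRNA gene Mir211 lies inside Trpm1 (chr7:64205806-64205911) and was not measured here.

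Over the 4 genes, none was called between genotypes before stimulation (limma adjusted p of 0.375 to 0.916, and 0 of 4 at an unadjusted p under 0.05), where 1.94% of all genes were called in either direction. In WT cells 3 of 4 rose by 8 h, where 18.9% of all genes rose, the same number stood higher at 24 h (25.4% of all genes), and 2 of 4 fell between 8 h and 24 h (11% of all genes). In Raptor-deficient cells 3 of 4 rose by 8 h (16% of all genes), 4 of 4 stood higher at 24 h (21.6%), and 1 of 4, Trpm1, rose between 8 h and 24 h (15.2%). All 4 Raptor-deficient samples lay above all 4 WT samples in 3 of 4 genes at 8 h and in 4 of 4 at 24 h. Over all genes that held for 6.66% and 12%. The choice of members used the stimulated samples, fixed this direction and favoured the rises in Raptor-deficient and the falls in WT cells, so nothing is read from these counts against the shares of all genes.

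The order of the genotype differences changed with time. At 8 h it ran Ccr8 (5.09-fold), Xcl1 (3.29-fold), Akr1c18 (1.38-fold) and Trpm1 (1.36-fold). At 24 h it ran Xcl1 (11.8-fold), Akr1c18 (6.35-fold), Ccr8 (4.90-fold) and Trpm1 (4.03-fold). The Xcl1 and Akr1c18 differences widened as the WT level fell, that of Trpm1 as the Raptor-deficient level rose, and that of Ccr8 stayed alike. Between the members in the 24 h ranking stood Slc15a2 (rank 2, 7.38-fold), a peptide transporter, and the immunoglobulin segment Igkj1 (rank 4, 5.49-fold). Slc15a2 differed among WT samples, at 3.22 and 3.41 in unstimulated replicates 1 and 3 and at 8.40 and 8.52 in replicates 2 and 4. Just below Trpm1 came Ifit1 (3.30-fold), Lad1 (3.19-fold) and Ndrg1 (3.17-fold). At 8 h Ccr8 had rank 2 and Xcl1 rank 5, with Slc15a2 (9.31-fold) at rank 1, Ramp3 (3.48-fold) at 3, Igkj1 (3.45-fold) at 4 and Ikzf2 (2.77-fold) at 6.

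**Figure D2:**
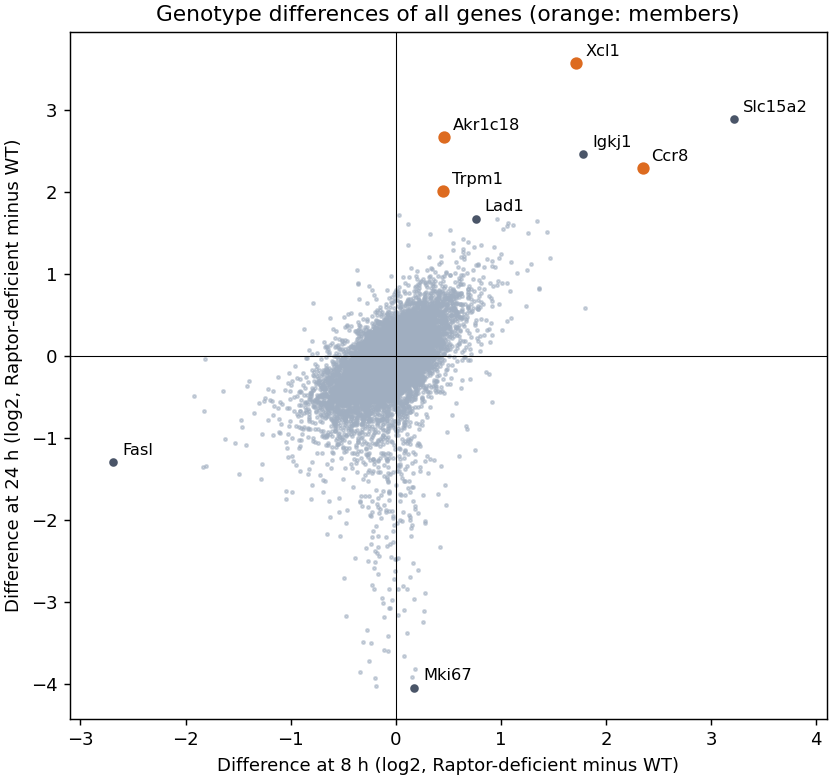
Difference between Raptor-deficient and WT cells of all 17097 genes at 8 h (x axis, log2) and 24 h (y axis, log2), each point 1 gene, with the 4 members in orange. Xcl1 (1.72 and 3.56) and Ccr8 (2.35 and 2.29) lie high at both times, while Akr1c18 (0.46 and 2.67) and Trpm1 (0.45 and 2.01) lie much higher on the 24 h axis than on the 8 h axis, and the cell cycle gene Mki67 (0.18 and -4.04) lies lowest.

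The members differed in which genes followed them across the 24 samples. Among the 9448 genes whose highest group mean reached the median of all gene values, Akr1c18 was the closest to Xcl1 (Pearson r = 0.976), followed by the TNF family ligand Tnfsf8 (0.973), the metalloprotease Adamts6 (0.972), the NF-kappaB subunit Rel (0.967) and Lad1 (0.966). The same genes came first for Akr1c18, namely Adamts6 and Xcl1 (0.976 each), Tnfsf8 (0.974), Lad1 (0.968) and Rel (0.958). Rel, for example, averaged 9.81 and 10.36 at 8 h and 9.10 and 9.83 at 24 h in WT and Raptor-deficient cells. By rank correlation the order was another one. Akr1c18 had rank 32 for Xcl1 (Spearman rho = 0.874), and Xcl1 and Tnfsf8 had ranks 22 and 39 for Akr1c18, while Adamts6 (ranks 2 and 3) and Lad1 (ranks 3 and 2) stayed near the top for Xcl1 and Akr1c18. These correlations describe samples that share groups and arrays, so they carry no p.

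Nearest to Ccr8 were the sialyltransferase gene St3gal1 (0.937), Xcl1 (0.925), the phosphatase gene Dusp4 (0.924), Tapbpl (0.909) and Lad1 (0.909), with ranks by Spearman of 16, 17, 29, 12 and 9. Trpm1 had looser matches. They were Gata3 (0.864), Grcc10 (0.855), Pax5 (0.846), Ubald1 (0.822) and Cldn10 (0.822), with Spearman rho of only 0.47 to 0.70 (ranks 47 to 318). At 24 h Gata3, a factor of T helper cell fate, averaged 6.18 ± 0.24 (SD, n = 4) in WT and 7.52 ± 0.34 (n = 4) in Raptor-deficient cells (2.52-fold). Pax5, a B cell factor, averaged 4.70 ± 0.17 and 6.08 ± 0.37 (2.59-fold), and reached the median of all gene values in Raptor-deficient cells at 24 h alone. Both were picked here for following Trpm1, which was chosen for this direction, so their differences are given as a description with no p. Once the group means were taken out, the members' deviations correlated weakly with each other, with r between -0.14 and 0.35 over the 6 pairs and 24 samples.

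The families of the 4 genes were measured beside them. The members were chosen for large differences and their relatives were not, so nothing is read from the members being larger. Counts of every list below stand against the shares of all genes called. These were 8.35% higher and 13.1% lower at 24 h, 4.14% and 8.77% at 8 h, and 1.94% in either direction when unstimulated. Of 33 other chemokine ligands, 3 were called higher and 2 lower in Raptor-deficient cells at 24 h (median difference 0.05, against 0.01 over all genes, of which 8.35% were called higher and 13.1% lower). Ccl22, a ligand of Ccr4, had the largest difference, from 5.46 ± 0.31 in WT to 6.95 ± 0.41 (SD, n = 4 each, 2.81-fold, limma adjusted p = 3.43e-05). Its Raptor-deficient samples, 7.48, 6.67, 7.04 and 6.59, all lay above the WT samples, 5.63, 5.58, 5.63 and 4.99. Ccl5 was 1.56-fold higher but near background (4.97 against 4.33, limma adjusted p = 0.00323). Ccl4 and Ccl3, chemokines made by activated T cells, were 1.5-fold and 1.80-fold lower (limma adjusted p = 0.00198 and 0.0154). The Ccl3 call was lost without Raptor-deficient 24 h replicate 4 (adjusted p = 0.0592), and that of Cxcl1, the third higher gene, in 22 of its 32 alternatives. At 8 h 1 ligand was called higher (Ccl12, at 3.20 against 2.87, near background) and 1 lower (Ccl4), calls lost in 12 of 32 and 4 of 33 alternatives, where 4.14% and 8.77% of all genes were called, and 0 of 33 were called when unstimulated (0 at an unadjusted p under 0.05).

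Of 17 other chemokine receptors, 1 was higher at each stimulated time, Ccr9, a gut-homing receptor, by 0.38 at 8 h and 0.42 at 24 h on the log2 scale (limma adjusted p = 0.013 and 0.00327). The 8 h call was lost without WT 8 h replicate 3 or Raptor-deficient 8 h replicate 4. Ccr4, which is often found beside Ccr8 on type 2 helper and regulatory T cells, was lower, by 0.67 at 8 h and 0.48 at 24 h (0.00891 and 0.0493). It lost the 8 h call without Raptor-deficient 8 h replicate 2 (0.053) and the 24 h call in 16 alternatives. Cxcr5, the follicular homing receptor, was 1.51-fold lower at 24 h near background (4.33 against 4.93, limma adjusted p = 0.00114). When unstimulated, 0 of 17 were called (0 at an unadjusted p under 0.05).

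**Figure D3:**
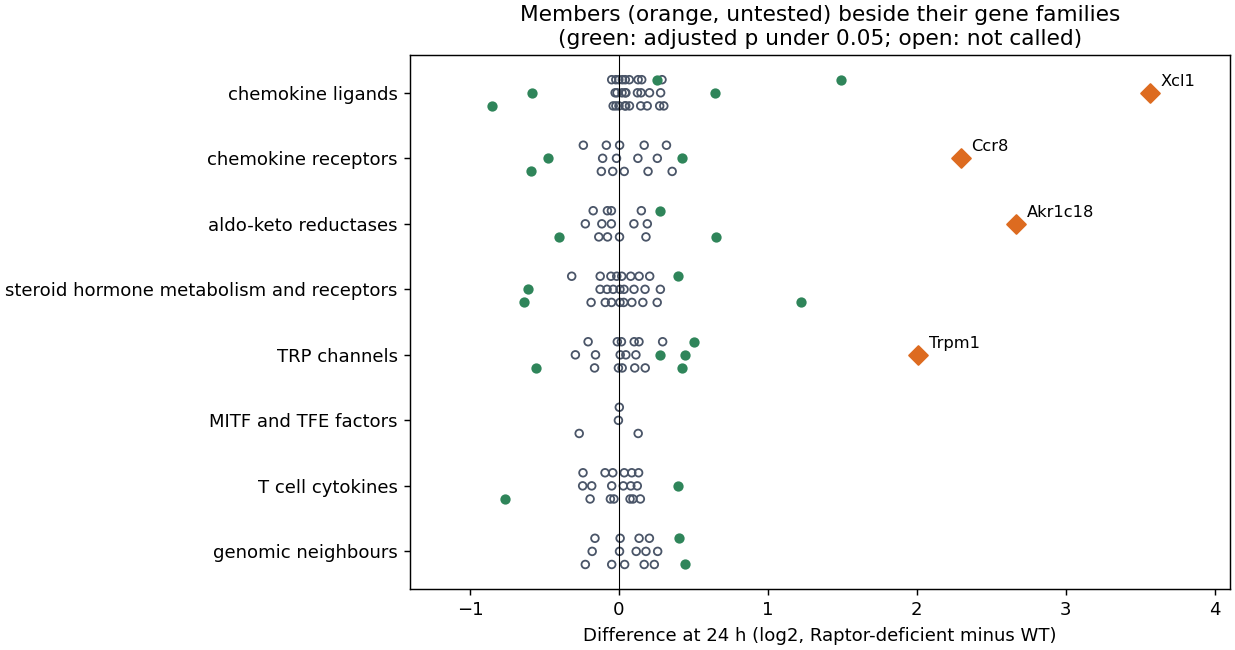
Difference at 24 h (log2, Raptor-deficient minus WT) of each measured gene in 7 pathway lists and of the 16 genomic neighbours, in green where the limma adjusted p was under 0.05 and open where not called, with the members as orange diamonds, not tested. Xcl1 (3.56), Ccr8 (2.29), Akr1c18 (2.67) and Trpm1 (2.01) were chosen for their size, so their place to the right is no result. Among the other chemokine ligands Ccl22 (1.49) lies highest.

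Of 16 other aldo-keto reductases, 2 were called higher and 1 lower at 24 h (median difference -0.05), and 0 at 8 h or when unstimulated (1 and 2 at an unadjusted p under 0.05). Akr1c12, a gene of the same cluster, was 1.57-fold higher at 24 h (6.22 ± 0.18 against 6.87 ± 0.37, SD, n = 4 each, limma adjusted p = 0.00229), a call that was lost with the mean of its probe sets (0.182). The other 2 calls, Akr1c20 higher by 0.28 and Akr1e1 lower by 0.40, were lost in 8 of 32 and 6 alternatives. Of 28 genes of steroid hormone metabolism and receptors, 2 were higher and 2 lower at 24 h and 2 higher and 4 lower at 8 h, with 0 called when unstimulated (3 at an unadjusted p under 0.05). The 8 h calls of Hsd11b1 and Tsc22d3, both higher, and of Hsd17b4, lower, were lost in 5, 6 and 7 alternatives. Tsc22d3, a glucocorticoid-induced gene, was 2.33-fold higher at 24 h (limma adjusted p = 5.87e-05). Fkbp5, another such gene, was 1.53-fold lower (9.4e-05). Hsd17b7, which also acts in cholesterol synthesis, was 2.05-fold lower at 8 h and 1.56-fold lower at 24 h (limma adjusted p = 1.92e-07 and 5.59e-05). Star, the mitochondrial cholesterol carrier, was called higher at 24 h (0.40, adjusted p = 0.047) but not in 17 alternatives.

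Of 21 other TRP channels, 4 were higher and 1 lower at 24 h (median difference 0.05), and 0 at 8 h or when unstimulated (6 and 1 at an unadjusted p under 0.05). Mcoln1, the lysosomal channel, was 1.42-fold higher at 24 h (6.63 ± 0.14 against 7.13 ± 0.05, SD, n = 4 each, limma adjusted p = 0.00234). Trpm4, a calcium-activated channel of the same subfamily as Trpm1, was 1.47-fold lower (0.00144). The calls of Trpv2, Pkd2l2 and Trpm7, all higher, were lost in 4, 2 and 19 alternatives. Of 20 T cell cytokines, 2 were higher and 3 lower at 8 h and 1 higher and 1 lower at 24 h, with 0 called when unstimulated (3 at an unadjusted p under 0.05). Il2, the T cell growth factor, was 1.78-fold lower at 8 h and 1.70-fold lower at 24 h (limma adjusted p = 0.00108 and 0.00121). Csf2, which like Xcl1 encodes a product of activated T cells, had means near background in every group, just under the median in Raptor-deficient cells at 8 h. It was 1.69-fold higher at 8 h (4.75 ± 0.16 against 5.51 ± 0.23, limma adjusted p = 6.69e-05) and 1.32-fold higher at 24 h (0.016). The 24 h call was lost without WT replicate 2 or Raptor-deficient replicate 4 of that time. The 8 h call of Lif, the other higher cytokine, was lost in 4 alternatives.

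Markers of cells known to carry these genes were also measured. Of the 8 regulatory T cell genes, which mark a cell type known for Ccr8, 4 were called higher and 2 lower at 24 h (median difference 0.56). Over all genes at 24 h, 8.35% were called higher and 13.1% lower (median difference 0.01), which holds for the other marker lists too. The factors Foxp3 (1.71-fold), Ikzf2 (2.28-fold) and Ikzf4 (1.67-fold) and the receptor Tnfrsf18 (1.51-fold) were higher (limma adjusted p = 0.000275, 1.29e-06, 0.007 and 5.11e-05). The inhibitory receptor Ctla4 (1.77-fold) and Nrp1 (1.43-fold) were lower (0.000175 and 0.00297). The mean of the list ran from 7.38 to 7.49 in WT and from 7.67 to 7.82 in Raptor-deficient samples at 24 h. At 8 h 1 was higher (Ikzf2, 2.77-fold from near background) and 1 lower (Ctla4). The list's mean, which averages these opposite differences, overlapped between genotypes (6.63 to 6.80 and 6.65 to 6.91). When unstimulated 1 was higher (Ikzf2, a call lost in 6 alternatives) and 1 lower. Of 7 markers of type 2 helper cells and group 2 innate lymphoid cells, 2 were higher (Gata3 and Il17rb) and 1 lower (Ccr4) at 24 h, 1 and 1 at 8 h and 0 when unstimulated (0 at an unadjusted p under 0.05). The Il17rb call was lost without replicate 3 of either 24 h group (highest adjusted p = 0.0555) and that of Ccr4 in 16 alternatives. Their mean ran from 5.08 to 5.22 in WT and from 5.32 to 5.44 in Raptor-deficient samples at 24 h, with Il4, Il5 and Il13 near background.

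**Figure D4:**
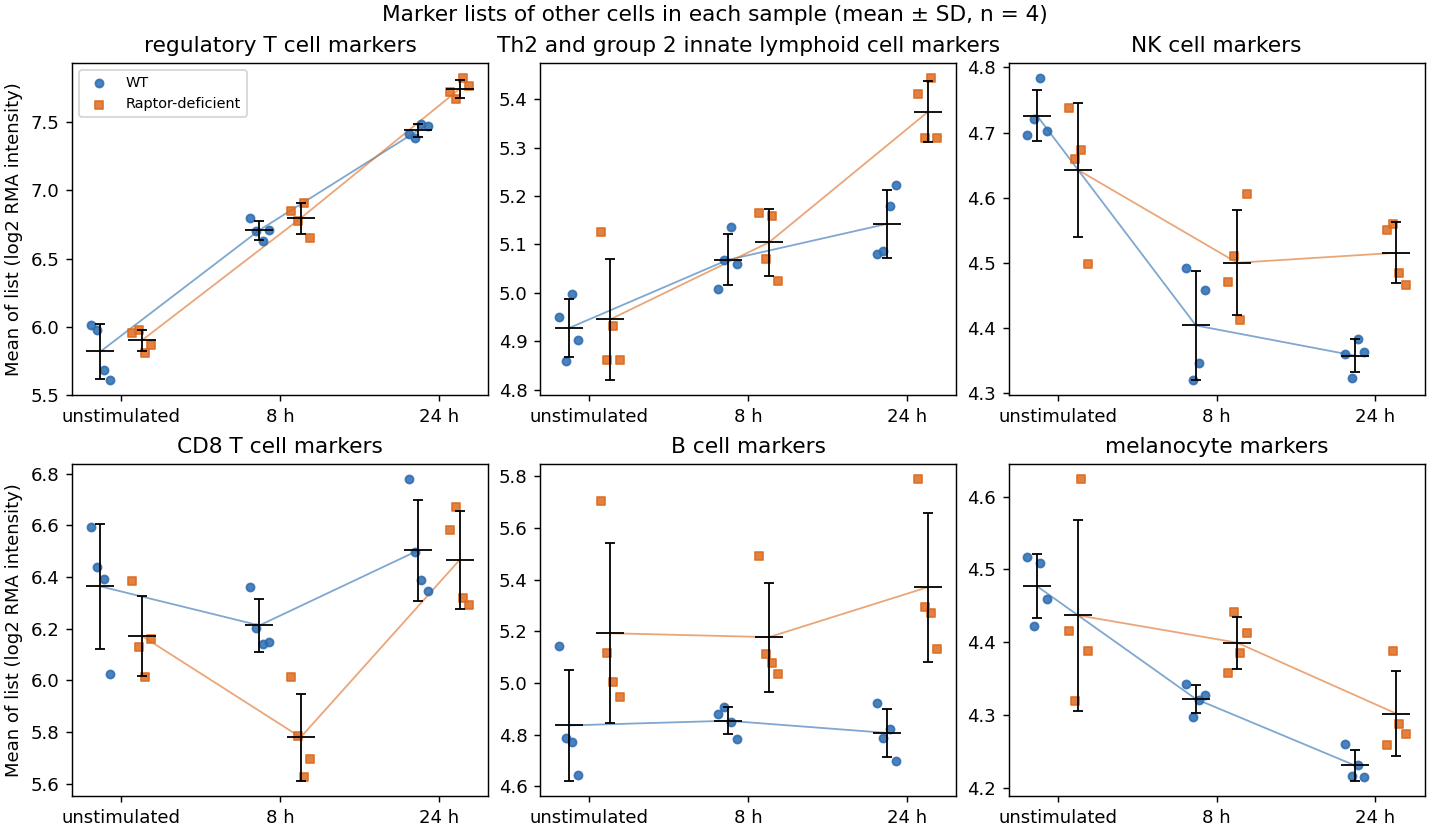
Mean log2 intensity of 6 marker lists in each sample by time, WT as blue circles and Raptor-deficient as orange squares, with the mean and SD of 4 samples, each panel on its own axis. At 24 h the genotypes lie apart for the regulatory T cell, Th2, NK and B cell lists and overlap for the CD8 and melanocyte lists.

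For Xcl1, the CD8 markers Cd8a and Cd8b1 were not called at any time (1, 2 and 0 of 2 had an unadjusted p under 0.05 when unstimulated, at 8 h and at 24 h). Their mean at 8 h was lower in Raptor-deficient (5.63 to 6.01) than in WT samples (6.14 to 6.36), and at 24 h it overlapped. Of 9 NK cell markers 1, Prf1, was called higher at 24 h (by 0.31, limma adjusted p = 0.00287). Another 1, Klrd1, was called lower when unstimulated (by 1.65, limma adjusted p = 1.25e-05), and 0 were called at 8 h (2 at an unadjusted p under 0.05). At 24 h only Prf1 and Eomes were at or above the median, and Ncr1 and Klrb1c were near background in both genotypes. The list's mean then ran from 4.32 to 4.38 in WT and from 4.47 to 4.56 in Raptor-deficient samples. Its median difference at 24 h was 0.26, against 0.01 over all genes. For Trpm1, 0 of 10 melanocyte markers were called at any time (1, 1 and 0 at an unadjusted p under 0.05). At 24 h Tyr, Tyrp1, Dct and Mlana were near background in both genotypes, while Pmel reached the median in both and Sox10 in Raptor-deficient cells only. The list's mean at 8 h was higher in Raptor-deficient (4.36 to 4.44) than in WT samples (4.30 to 4.34) without overlap. At 24 h it overlapped narrowly (4.21 to 4.26 in WT, 4.26 to 4.39 in Raptor-deficient samples).

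B cell markers had 3 of 9 called higher at 24 h (Pax5, H2-Aa and Cd79a, median difference 0.46), 1 at 8 h and 0 when unstimulated (2 at an unadjusted p under 0.05). The Cd79a call was lost in 11 alternatives. The list's mean ran from 4.70 to 4.92 in WT and from 5.13 to 5.79 in Raptor-deficient samples at 24 h, and Raptor-deficient replicate 1 was the highest at every time (5.71, 5.49 and 5.79). At 24 h that replicate was the highest of its group for Ccr8 (7.76). It lay among the other Raptor-deficient replicates for Xcl1 (10.76), Akr1c18 (8.56) and Trpm1 (6.16). A link of these values to the B cell markers was not tested. Myeloid markers had 1, 2 and 2 of 10 higher at the 3 times, dendritic cell markers 0, 0 and 1 of 6 (0, 1 and 1 at an unadjusted p under 0.05). Of these calls, S100a9 when unstimulated was lost in 6 alternatives, Lyz2 and Fcer1g at 24 h in 4 each and the dendritic marker Zbtb46 at 24 h in 3. The myeloid list's mean was higher in Raptor-deficient samples without overlap at all 3 times, barely so when unstimulated (highest WT 4.67, lowest Raptor-deficient 4.68). At 8 h it ran from 4.51 to 4.58 in WT and from 4.78 to 4.87 in Raptor-deficient samples. The B cell list's mean was also apart at 8 h (4.78 to 4.91 and 5.03 to 5.49). None of 6 mast cell, 4 erythroid or 10 hepatocyte markers was called at any time (at most 2 of a list at an unadjusted p under 0.05). Alpha beta CD4 T cell markers had 3, 3 and 1 of 10 lower and 0 higher, of which Cd4 and Trat1 when unstimulated were lost in 6 and 5 alternatives. Their list's mean was lower in Raptor-deficient samples without overlap when unstimulated (9.72 to 9.81 in WT, 9.49 to 9.64 in Raptor-deficient) and at 8 h (9.67 to 9.91 and 9.44 to 9.52). The part of any of the cell types above in the member differences was not tested. The members' 24 h differences without replicate 1 of both 24 h groups, which carried the Alb signal, were 3.61 for Xcl1, 2.16 for Ccr8, 2.56 for Akr1c18 and 2.01 for Trpm1, close to those of all samples.

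The genes beside the members on the chromosome were not chosen for their differences. Of the 16 nearest measured neighbours, 2 on each side of each member, 1 was called lower when unstimulated, 0 at 8 h and 2 higher at 24 h. Atp1b1, a sodium pump subunit 473 kb from Xcl1, was lower by 0.77 when unstimulated (limma adjusted p = 0.0023) and higher by 0.44 at 24 h (0.0238). Mtmr10, 17.9 kb beyond Trpm1, was higher by 0.40 at 24 h (limma adjusted p = 0.0324). Both 24 h calls were lost in 5 and 6 alternatives. Cx3cr1, the chemokine receptor gene 23.8 kb from Ccr8, was near background and differed by 0.17 at 24 h (limma adjusted p = 0.3). Akr1c14 and Akr1c13, which flank Akr1c18 at 42.1 kb and 40.5 kb, differed by 0.00 and -0.23 (0.984 and 0.168).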

How the data were processed

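Total RNA of sorted naive CD4 T cells (20 ng per sample) was amplified, biotin-labelled and hybridised to Affymetrix HT MG-430 PM arrays. The deposited values are log2 intensities, made with RMA and Partek 6.5 per the submitters' processing notes. Of 45141 probe sets, 28898 name 1 gene symbol, 551 several, and the gene table lists none for 15692. Each gene is read from its brightest probe set by the mean of the 24 arrays, giving 17097 genes with no level filter. One limma 3.58.1 model (R 4.3.3) held 6 group means and all 24 arrays (18 residual degrees of freedom), tests were two-sided, and p-values were Benjamini-Hochberg adjusted over all genes in each of 9 comparisons, with calls at an adjusted p under 0.05. The fit was run on simulated data with independent noise, a check of the code that cannot show how it handles effects shared between samples. Beside the main fit 33 alternatives were run. The number of arrays limits the precision.

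The members and the 7 pathway and 12 cell type lists were chosen with earlier results of these data known. Named genes are the members, the 10 largest rises and falls by genotype, the 5 closest patterns per member, the 2 nearest measured genes on each side, up to 6 called genes per pathway list by p, and Xcr1, Ccl1, Ccl8, Mitf, Tfeb, Tfe3, Il3 and Rptor. Marker genes named in the text, and Alb, were chosen after their values were seen. Gene positions and start regions come from RefSeq on GRCm38.p6. Protein sequences were not used here.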

Additional observations from a re-analysis of the deposited data

Results flagged for a closer look

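In unstimulated WT cells, Xcl1 replicate 1 read 4.43 and lay below the other 3 samples by 0.847 of the group's range, at a level near background. In Raptor-deficient cells at 24 h, Trpm1 replicate 4 read 6.58 and lay above the other 3 samples by 0.901 of the group's range. The genotype difference of Trpm1 without that sample is among the leave-outs below. Chance sets a sample apart in this way in about 1 in 20 groups. The change of Trpm1 from 8 h to 24 h differed between the genotypes by 1.56 on the log2 scale, since all 24 h Raptor-deficient samples lay above all 8 h ones and all 24 h WT samples lay below all 8 h ones. This difference was not tested, because the stimulated samples were used to choose the gene.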

How the results depend on the processing

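The 36 differences and responses of the members were recomputed under 33 alternatives, 1188 values in all. No called value changed sign or lost its call. The choice of members favoured the rises in Raptor-deficient and the falls in WT cells, so nothing is read from those calls being kept. Of the values, 11 changed sign, in 4 results that were not called and lay within 0.15 of 0 (log2), namely the unstimulated genotype differences of Xcl1 (down to -0.04), Ccr8 (-0.06) and Akr1c18 (-0.008) and the Raptor-deficient change of Xcl1 from 8 h to 24 h (up to 0.01). With the mean of all probe sets the genotype difference of Trpm1 moved from 0.45 to 0.23 at 8 h and from 2.01 to 1.11 at 24 h, which follows from the second probe set's values. Calls were gained for the WT change of Ccr8 from 8 h to 24 h with array weights (0.36, adjusted p = 0.042) and in a fit of only the groups compared (0.33, 0.022), and for that of Trpm1 with median centring (-0.32) and only the groups compared (-0.25). The Raptor-deficient change of Trpm1 by 8 h ranged from 0.13 to 0.34 over the leave-outs of 1 sample. The 24 h genotype differences ranged over these from 3.49 to 3.61 for Xcl1, 2.21 to 2.39 for Ccr8, 2.56 to 2.86 for Akr1c18 and 1.91 to 2.05 for Trpm1. Leaving out replicate 1 of both 24 h groups was chosen after seeing the data. Raptor-deficient and WT samples of the same number and time correlated weakly in their deviations from the group means (r from 0.02 to 0.25). Samples of the same number at different times were not compared in this way. Some lists had the same sample number highest at every time, such as the B cell list in Raptor-deficient replicate 1 and the CD8 list in WT replicate 1. The liver signal lay in the 24 h samples numbered 1 of both genotypes. Whether samples of the same number share a source was therefore not settled, and the replicate block was kept as an alternative. It changed no call of a member (Xcl1 at 24 h 3.56, Trpm1 from 8 h to 24 h in WT 0.111 as adjusted p) and gave 355 genes called between unstimulated genotypes against 332. That count was 179 with array weights, 52 in a fit of only the groups compared, 196 without WT unstimulated replicate 3, 207 and 216 without the unstimulated WT samples 1 and 2, and 718 without the third unstimulated Raptor-deficient sample, so calls and misses among unstimulated cells depend on these samples. Of 114 list counts, 45 moved by over 1.5 times under at least 1 alternative. The cause was not tested. All 4 members passed the filter on dim genes, Ccr8 and Trpm1 through stimulated Raptor-deficient samples alone, so nothing is read from their passing. Levels under 5.51 are called near background by the convention given above, and no background level was estimated here.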
